A study of Mus musculus with 2 samples.

Results

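The nuclei described here are Sox6 dopaminergic nuclei of the mouse ventral midbrain that also carried transcripts of Alk, Vcan and Tox. They were chosen by their own counts. A nucleus was a member when at least 500 genes were detected in it, when it had at least 1 unique molecular identifier (UMI, the tag that marks a single captured transcript) of Sox6, when its UMIs of Alk, Vcan and Tox summed to 2 or more, and when Grin2c, Anxa1 and Calb1 had none. Of 12065 nuclei with at least 500 genes, 1120 met this rule, 555 of 6556 in the male library and 565 of 5509 in the female library. The levels of these 7 genes in the members follow from the selection and are given as a description.

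Nuclei came from adult mice of the strain Dat-IRES-Cre, CAG-Sun1/sfGFP, in which Cre under the dopamine transporter gene turns on a green fluorescent protein of the nuclear envelope. GFP+ nuclei of the midbrain were sorted, and those of 2 male mice were pooled into the first library and those of 3 female mice into the second. All mice carried both alleles, and there was no treatment and no other genotype. The driver labels any cell that has used the transporter promoter, and the pools hide which mouse a nucleus came from, so the libraries (n = 2) were the replicates and the sexes were not compared. The deposited values are UMI counts per gene and nucleus. The male library held 21631906 UMIs and the female library 19870131. The members had a median of 4007 UMIs in the male library (range 1079 to 19907) and 4219 in the female library (range 1375 to 15840). Between the libraries 6 cell barcodes were shared, and 2 of them belonged to a member in one of the libraries, none in both.

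Midbrain dopamine neurons make dopamine with tyrosine hydroxylase (Th), load it into vesicles with Slc18a2 and take it back with the transporter Slc6a3. They split into molecular subtypes, and the transcription factor Sox6 marks the branch that is found mainly in the ventral tier of the substantia nigra. Alk encodes a receptor tyrosine kinase that responds to the ligands ALKAL1 and ALKAL2, Vcan encodes versican, a large chondroitin sulfate proteoglycan of the extracellular matrix, and Tox encodes an HMG-box nuclear factor. Grin2c encodes an NMDA receptor subunit, Anxa1 a calcium-dependent phospholipid-binding protein and Calb1 the calcium buffer calbindin, and the study of origin used Anxa1 and Calb1 to name subtypes of dopamine neurons.

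On mm10 the genes of the selection lie at chr7:115470872-116038796 (Sox6), chr17:71868972-72604627 (Alk), chr13:89655312-89742509 (Vcan) and chr4:6686353-6991557 (Tox), all on the minus strand. All are long, from 87.2 kb for Vcan to 735.656 kb for Alk, and in nuclear RNA much of their signal can come from unspliced transcripts, which the authors' counting included. Members made up 17.8% of the 3110 male nuclei with Sox6 (exact 95% interval 16.5 to 19.2%) and 20.0% of the 2818 female ones (18.6 to 21.6%). These intervals, like all intervals here, cover counting error only. The share depended on depth. Among Sox6 nuclei with under 2000 UMIs it was 9.65% (male) and 11.8% (female), and among those with 6000 or more it was 23.1% and 26.2%. After every nucleus was thinned to 1000 UMIs, the rule found 5.17% and 6.23% of the nuclei that still had Sox6. Because members were deeper than the remaining Sox6 nuclei (medians of 3284 male and 3625 female UMIs), they were compared with remaining Sox6 nuclei drawn to the same depth, 1568 male and 1202 female, with medians of 4058.5 and 4236.5 UMIs. These are called matched nuclei.

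Alk led the selection. It had a UMI in 86.1% of the male and 85.7% of the female members, against 47.2% and 46.5% for Tox and 40.2% and 48.3% for Vcan. All 3 genes were found together in 72 male and 73 female members, and Alk alone carried 162 and 131 of them. The sum was exactly 2 in 225 members of each library, its median was 3 in both, and it reached 14 and 16. Just outside the rule lay 465 male and 338 female nuclei with a sum of 1 that met every other term. A sum of 2 or more together with Grin2c, Anxa1 or Calb1 kept out a further 298 male and 437 female nuclei.

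The level of Alk was 458 CPM (UMIs of the gene per 1000000 UMIs of the class) in male members and 447 in female members, against 109 and 135 CPM in matched nuclei. Vcan was at 148 and 191 CPM in members and at 32.6 and 56.5 CPM in matched nuclei, and Tox at 164 and 154 CPM against 41.0 and 48.1 CPM. The selection on these genes fixes that order. Sox6 was at 576 and 586 CPM in members and 603 and 658 CPM in matched nuclei. Alk and Tox were not limited to Sox6 nuclei, since nuclei without a Sox6 UMI held Alk at 141 and 155 CPM and Tox at 127 and 134 CPM. How much of these UMIs was free RNA in the droplets was not tested.

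**Figure D1:**
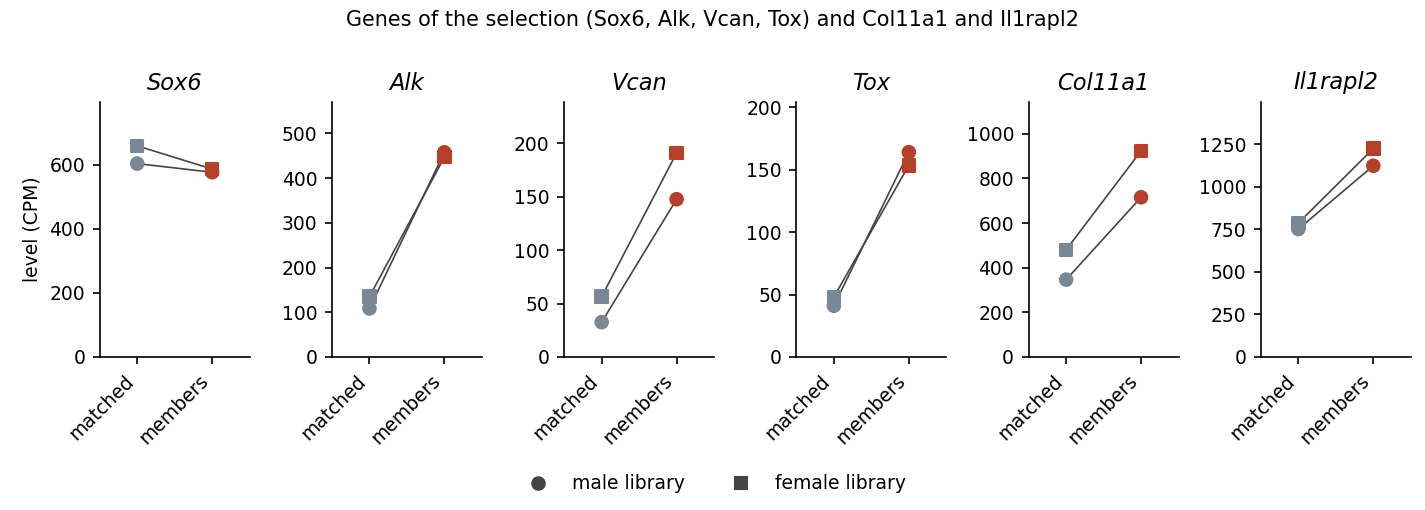
Level in CPM of Sox6, Alk, Vcan and Tox, which the selection used, and of Col11a1 and Il1rapl2, which it did not. Each point is a library, a line joins the matched nuclei and the members of the same library, and for the last 5 genes the members lie above the matched nuclei in both libraries.

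Pairs of the 3 genes were counted over all Sox6 nuclei thinned to 1000 UMIs and set against the number that independent detection would give. These genes were chosen together on the same nuclei, so the ratios describe the genes of the rule and test nothing apart from it. Their intervals count nuclei, not mice, and give no test. Alk and Vcan were found together 2.09 times as often as under independence in the male library (47 nuclei, exact Poisson 95% interval of the ratio 1.54 to 2.78) and 1.43 times in the female library (49 nuclei, 1.06 to 1.89). For Alk and Tox the ratios were 1.39 (0.968 to 1.93) and 1.59 (1.18 to 2.09), and for Vcan and Tox 1.97 (1.17 to 3.12) and 1.26 (0.747 to 1.99). For each of the pairs with Tox the interval reached below 1 in 1 of the libraries. Tox and Grin2c had ratios of 0.340 (0.0927 to 0.871) and 0.509 (0.254 to 0.911), so fewer shared nuclei than under independence. Tox and Calb1 went the other way, with ratios of 1.87 (0.854 to 3.55) and 2.02 (1.01 to 3.61). For Anxa1 with each of the 3 genes the interval held 1 in both libraries. The 3 genes thus did not avoid all of the genes that the rule excludes. All are terms of the rule, and these ratios too are a description and no test.

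The rule was then repeated with each of the 3 genes left out in turn. The genes were put together on these same nuclei, so the values are a description and no test of them is given. With members chosen by Vcan and Tox, Alk was at 360 CPM in male and 389 CPM in female members against 159 and 184 CPM in matched nuclei. With members chosen by Alk and Tox, Vcan was at 101 and 151 CPM against 40.3 and 79.6 CPM. With members chosen by Alk and Vcan, Tox was at 111 and 99.7 CPM against 56.9 and 68.5 CPM. In both libraries the gene left out was higher in the nuclei picked by the other two and by the lack of Grin2c, Anxa1 and Calb1, which the matched nuclei hold, and the part of each term of the rule was not tested.

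The members were dopaminergic nuclei by the genes they expressed. The 10 dopaminergic marker genes summed to 3239 CPM in male and 4166 CPM in female members, close to the 3399 and 4220 CPM of matched nuclei. Th was at 313 and 397 CPM in members and 328 and 415 CPM in matched nuclei, a log2 fold change of -0.04 (SE 0.04, edgeR adjusted p = 0.869), and Slc6a3 at 541 and 712 CPM against 590 and 723 CPM. Markers of other cell types were low. The 6 markers of oligodendrocyte precursors, cells that use Sox6 and Vcan as well, summed to 4.02 and 3.69 CPM in members and 4.00 and 1.74 CPM in matched nuclei, with Olig2 and Gpr17 at 0 in the members of both libraries and Sox10 or Pdgfra the most abundant. Oligodendrocyte markers summed to 140 and 49.1 CPM in members and to 113 and 63.1 CPM in matched nuclei. The GABAergic list summed to 67.2 and 53.9 CPM in members against 49.5 and 51.8 CPM. None of the tested genes of the lists of other cell types passed the test, and the part of such transcripts in the other results was not tested. Of members, 10.6% and 8.32% were among the nuclei with the highest doublet scores, against 8.85% and 8.79% of the remaining Sox6 nuclei. Xist was at 0 UMIs in male members and 950 UMIs in female members, as the labels of the pools have it.

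Among 12997 tested genes, 405 differed between members and matched nuclei (3.12% of those tested, edgeR quasi-likelihood test on counts summed per library and class, library as a block, Benjamini-Hochberg adjusted p under 0.05). Of these, 250 were higher (1.92%) and 155 lower (1.19%), and all 405 had the same sign in each library on its own. Most differences were small: 11 genes were more than 2-fold higher and 13 more than 2-fold lower. The median log2 fold change over all tested genes was 0.003. The called genes were long, with a median of 279 kb for those higher and 204 kb for those lower against 29.1 kb for all tested genes, and they were abundant, with a median of 2635.5 and 2355 UMIs over the 4 sums against 348. In simulated counts at this depth the test recovered 72% of 2-fold and 41% of 1.5-fold changes, so smaller changes were often not detectable. The p-values rest on 2 pools and cover no spread between mice. Without the library block edgeR called 0 genes (335 at an unadjusted p under 0.05), and DESeq2 called 75 higher and 28 lower.

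Col11a1 and Il1rapl2 were the 2 markers of these nuclei that the rule did not use. They were listed as markers with earlier results of these data known, so their p-values give no independent support. Col11a1, which encodes a chain of the fibrillar collagen XI, was at 716 CPM in male and 923 CPM in female members and at 347 and 480 CPM in matched nuclei. The log2 fold change was 1.01 (SE 0.04, edgeR adjusted p = 9.52e-155). Il1rapl2, an X-linked synaptic adhesion receptor related to the interleukin 1 receptor accessory protein, was at 1123 and 1225 CPM in members against 752 and 787 CPM, a log2 fold change of 0.63 (SE 0.03, edgeR adjusted p = 3.77e-79). Each gene was higher in members than in matched nuclei of the same library, in both libraries. Among the clusters of Sox6 nuclei described further on, Il1rapl2 was highest in a cluster that held few members.

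Apart from Col11a1, the genes with the largest rise were Gm50048, Nefm, Rxfp1, Itih5, Lypd6b, Gm15614, Cfap61, Gm49527, Ulk3, Ntng1, Rskr, Kcnmb2, Gm34609 and Pigt. Ntng1 encodes netrin-G1, a membrane-anchored protein that binds NGL-1 on the opposite side of synapses. It stood at 626 and 752 CPM in members and 317 and 429 CPM in matched nuclei, a log2 fold change of 0.91 (SE 0.04, edgeR adjusted p = 1.09e-115). Kcnmb2, the inactivating beta subunit of BK potassium channels, was at 53.1 and 44.7 CPM in members and 26.5 and 26.9 CPM in matched nuclei, and Cfap61, which encodes a protein of the ciliary radial spoke, at 77.2 and 58.7 CPM against 30.5 and 35.2 CPM. Their log2 fold changes were 0.90 (SE 0.13) and 1.08 (SE 0.11).

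Gm50048 had the largest log2 fold change of this group, 2.73 (SE 0.36, edgeR adjusted p = 4.36e-12). It rested on few transcripts, 26 UMIs in male and 28 in female members (10.5 and 10.3 CPM) against 12 and 8 UMIs in matched nuclei (1.72 and 1.40 CPM). It is annotated as an antisense transcript that overlaps Aqp4, an astrocyte gene that was at 0 in male members and in 0.177% of female members. The strand setting of the counting was not given in the sources used here. Several others of the group were also sparse or uneven between the libraries. Nefm, a neurofilament subunit, was at 11.7 CPM in male members against 3.43 CPM in matched nuclei but at 3.32 against 2.62 CPM in the female library. Gm15614 is annotated antisense to Ppp1cb and Yes1, and Gm49527 overlaps Commd5 and Zfp7 on the same strand, so their counts are uncertain. Of the 15 genes with the largest rise, DESeq2 called Col11a1, Ntng1, Cfap61 and Gm50048 (adjusted p = 0.0140 for the last) and none of the others, Kcnmb2 included (adjusted p = 0.0987).

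The largest falls were in Irf2bp1, Prdm1, 9230109A22Rik, Abca13, Trim71, Adamts18, Zfp873, Gm28756, Stac2, Atp2b4, Ptchd4, Helb, Gm11639, Frmd8 and Pde3a. Ptchd4, a patched-domain membrane protein, was the most abundant of them at 39.4 and 34.7 CPM in members and 77.9 and 80.2 CPM in matched nuclei, a log2 fold change of -1.07 (SE 0.11, edgeR adjusted p = 3.53e-21). Atp2b4, a calcium pump of the plasma membrane, was at 24.1 and 19.9 CPM in members and 47.2 and 49.4 CPM in matched nuclei, a log2 fold change of -1.11 (SE 0.14, edgeR adjusted p = 2.49e-13). Adamts18, a secreted metalloprotease, was at 5.63 and 6.28 CPM against 15.6 and 13.8 CPM. The others were at under 22 CPM in members of both libraries. Of the 15 genes with the largest fall, DESeq2 called Atp2b4 and Ptchd4 and none of the others. Adamts18, Ptchd4, Stac2 and Gm11639 also led cluster 1 of the Sox6 nuclei, a cluster described further on that was rich in Grin2c, which the rule keeps out of the members.

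**Figure D2:**
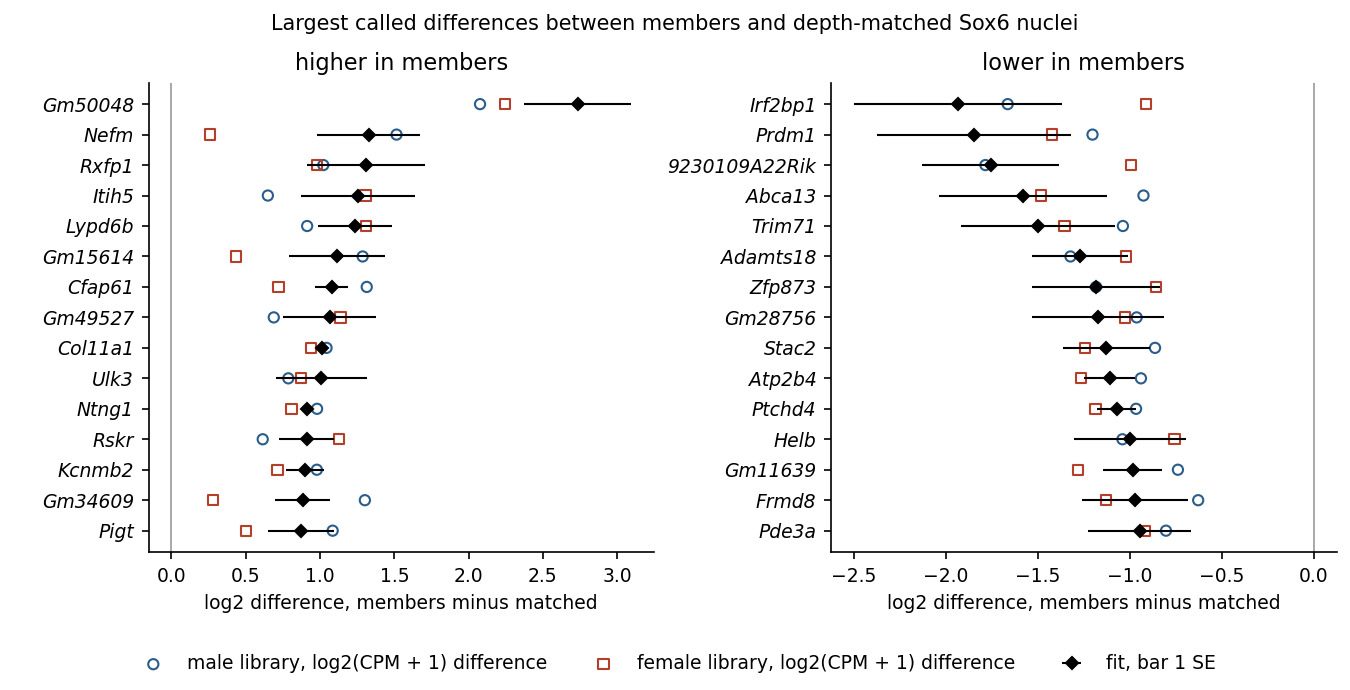
Log2 difference between members and matched nuclei for the 15 called genes with the largest rise (left) and the 15 with the largest fall (right). Diamonds give the edgeR log2 fold change with 1 SE, circles and squares the difference of log2(CPM + 1) in the male and female library, which understates the change of low genes; every gene has the same sign in both libraries.

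None of 10 genes for dopamine synthesis, storage and reuptake was called, with a median log2 fold change of -0.07. At 3.12% called among all tested genes, a count of 0 in a list of this size reads nothing about the list. Among 10 transcription factors of dopaminergic identity only Lmx1a, a LIM homeobox factor that specifies midbrain dopamine progenitors, was called. It was at 70.0 and 90.5 CPM in members and 46.9 and 44.5 CPM in matched nuclei, a log2 fold change of 0.83 (SE 0.10, edgeR adjusted p = 2.72e-15). Its close relative Lmx1b was at 294 and 266 CPM in members and 295 and 263 CPM in matched nuclei. None of 13 genes of inherited Parkinson disease was called, which likewise does not set the list apart from all tested genes.

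Of 14 known subtype genes of Sox6 neurons, 3 were higher and 4 lower, against 3.12% called among all tested genes. Of these 7 DESeq2 kept Atp2b4 alone. Vav3, a guanine nucleotide exchange factor, was at 196 and 190 CPM in members against 141 and 161 CPM (log2 fold change 0.38, SE 0.06, edgeR adjusted p = 1.56e-08). Tmem163, a zinc transporter of synaptic vesicles, was at 35.4 and 38.0 CPM against 25.0 and 21.5 CPM, and Rbp4 was at under 4 CPM everywhere. Lower were Atp2b4, the secreted factor Ndnf, the neurokinin receptor Tacr3 and the potassium channel subunit Kcns3. Ndnf was at 89.7 and 112 CPM in members and 129 and 151 CPM in matched nuclei, and Tacr3 at 72.4 and 66.1 CPM against 91.7 and 85.8 CPM. The log2 fold change of Tacr3 was -0.33, and its call was lost with members by Alk and Tox (-0.13, edgeR adjusted p = 0.757). Aldh1a1, the retinaldehyde dehydrogenase that marks ventral Sox6 neurons, was not called: it was at 196 and 227 CPM in members and 194 and 249 CPM in matched nuclei. Of 8 tested subtype genes of Calb1, Otx2 and Vglut2 neurons, only the neurotrophin Ntf3 was called, and it was higher (log2 fold change 0.31, SE 0.09), though not by DESeq2.

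Of 13 tested genes among the ligands, relatives and adaptors of ALK, 1 was called, against 3.12% of all tested genes, so the count does not set these genes apart. Ptprz1, a receptor phosphatase that shares the ligands pleiotrophin and midkine with ALK, was at 814 and 947 CPM in members and 683 and 750 CPM in matched nuclei, a log2 fold change of 0.32 (SE 0.03, edgeR adjusted p = 4.22e-18). The genes of the ligands, Alkal1 and Alkal2, were too low to be tested, and in the male members both were at 0. Among other receptor tyrosine kinases and neurotrophic receptors, 2 of 14 were higher and 2 lower, and DESeq2 kept Gfra1 alone. The receptors of the glial cell line-derived family went both ways, with Gfra1 at 341 and 392 CPM in members against 277 and 282 CPM and Gfra2 at 13.3 and 12.9 CPM against 21.6 and 20.8 CPM.

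Of 11 tested proteoglycans and perineuronal matrix genes other than Vcan, Gpc5 was higher and Gpc6 lower, against 3.12% called among all tested genes. These are both glypicans, heparan sulfate proteoglycans tethered to the membrane. The log2 fold change of Gpc5 was 0.29, and it was 0.03 with members by Alk and Vcan (edgeR adjusted p = 0.969) and not called by DESeq2. Gpc6 was at 960 and 1020 CPM in members and 1301.5 and 1389.6 CPM in matched nuclei, a log2 fold change of -0.42 (SE 0.03, edgeR adjusted p = 9.62e-36). Of 12 tested collagen genes only Col11a1 was higher and only the transmembrane collagen Col25a1 lower, at 988 and 1163 CPM against 1180 and 1365 CPM. Among 6 tested TOX and SOX factors Tox3 was lower by 0.28 on the log2 scale (SE 0.06), though not by DESeq2, and none was higher.

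Adhesion genes and glutamate receptors held the largest numbers of differences, though not both the largest shares. The share called was 42.9% and 54.5% in these lists, and 50% in both the cadherins and the subtype genes of Sox6 neurons. Of 28 tested genes of the IL1RAPL and synaptic adhesion list, 8 were higher and 4 lower (42.9% called, against 3.12% of all tested genes), and the median log2 fold change of 0.02 was close to that of all genes. Ntng1, Il1rapl2, Lrrtm3, Tenm2, Tenm4, Il1rapl1 and Tenm3 were among the higher ones. Tenm2, a teneurin that binds latrophilins across the synapse, was at 4106 and 4215 CPM in members and 2840 and 3087 CPM in matched nuclei (log2 fold change 0.51, SE 0.03, edgeR adjusted p = 2.92e-77). Lower were Ntng2, Ptprd, Lrrtm4 and Nlgn1. Ntng2, the paralog of Ntng1 that binds NGL-2, was at 18.1 and 14.4 CPM in members against 25.7 and 24.4 CPM, and its call was lost with DESeq2, with members by Vcan and Tox and against nuclei without Grin2c, Anxa1 and Calb1. DESeq2 also lost the calls of Tenm3, Tenm4 and Nlgn1. Ptprd, a presynaptic receptor phosphatase that binds IL1RAPL proteins, was at 1007 and 964 CPM in members and 1242.5 and 1365.4 CPM in matched nuclei. As said above, called genes were long and abundant, and the part of length and depth in this count was not tested.

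Of 22 tested glutamate receptor genes, 9 were higher and 3 lower, against 3.12% called among all tested genes, with a median log2 fold change of 0.15. Higher were the kainate receptor subunits Grik1, Grik2 and Grik4, the AMPA receptor subunits Gria1 and Gria3, the NMDA receptor subunits Grin2a and Grin3a, the delta receptor Grid1 and the metabotropic receptor Grm5. Grik1 was at 697 and 693 CPM in members and 471 and 508 CPM in matched nuclei, a log2 fold change of 0.53 (SE 0.04, edgeR adjusted p = 4.39e-42). Grin3a was at 72.4 and 82.0 CPM against 54.2 and 48.7 CPM. The metabotropic receptor Grm7 (log2 fold change -0.27) and the kainate receptor subunit Grik3 (-0.14) were among the lower ones. DESeq2 did not call Grin3a, Grik2, Grik4, Grm7 and Grik3, and Grin2a had a log2 fold change of -0.04 against nuclei without Grin2c, Anxa1 and Calb1. Of 13 tested GABA receptor genes 3 were higher, Gabra2, Gabrg3 and Gabrb1, and none was lower. DESeq2 called none of them, and Gabrg3 had a log2 fold change of -0.18 against nuclei without Grin2c, Anxa1 and Calb1.

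**Figure D3:**
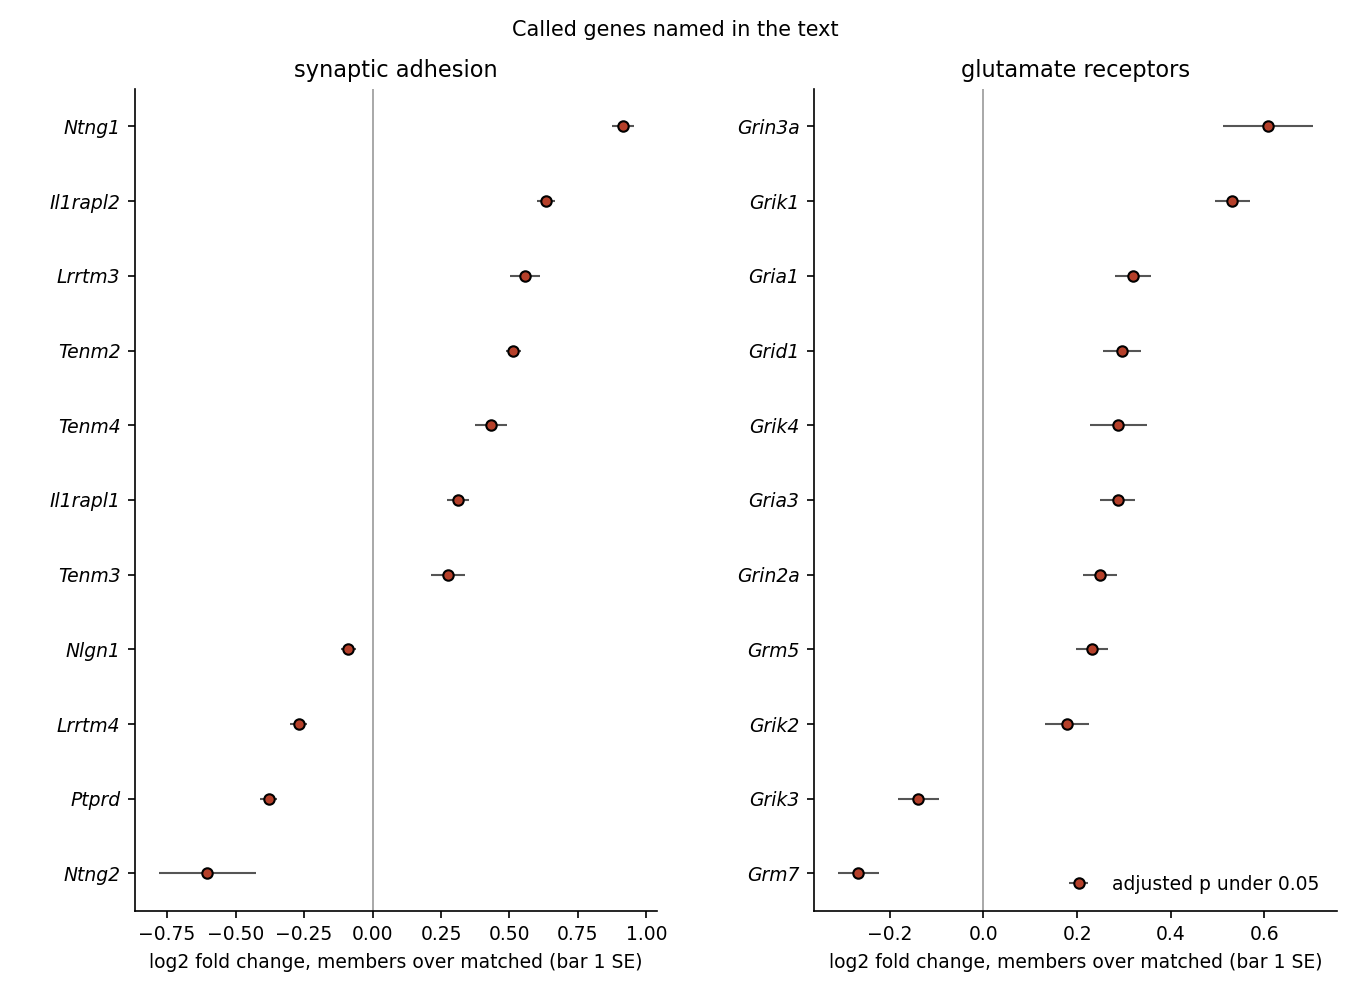
Log2 fold change of members over matched nuclei with 1 SE for the called genes named in the text from the synaptic adhesion list (left) and from the glutamate receptor list (right), so genes that did not pass the test are not drawn. Ntng1 and Grin3a lie at the upper end, Ntng2 and Grm7 at the lower end.

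Cadherins and guidance receptors were divided, and their counts stand against 3.12% called among all tested genes. Of 20 cadherins 5 were higher and 5 lower, led by Pcdh7, at 585 and 614 CPM in members against 403 and 415 CPM (log2 fold change 0.57, SE 0.04, edgeR adjusted p = 1.72e-44), and by Cdh6, at 21.7 and 25.5 CPM against 27.7 and 46.4 CPM. Of 30 tested axon guidance genes 5 were higher (Sema5a, Epha7, Plxna2, Epha6 and Dcc) and 2 lower (Unc5d and Epha5), though Unc5d was not called with members chosen by Alk and Tox (log2 fold change 0.004) or by Vcan and Tox (0.12). Of 34 tested genes for pacemaking and potassium channels 7 were higher and 2 lower. The T-type calcium channel gene Cacna1g, the SK channel gene Kcnn2 and Kcnip4 were among the higher ones. Tacr3 was the one neuropeptide or receptor gene called among 13 tested, Chrna6 the one nicotinic receptor gene among 7 (higher, log2 fold change 0.28, SE 0.09), and none of 6 tested activity-induced genes was called. Of the genes named here DESeq2 called Pcdh7, Epha6, Dcc and Kcnip4, and not Cdh6, Sema5a, Epha7, Plxna2, Unc5d, Epha5, Cacna1g, Kcnn2, Tacr3 and Chrna6.

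Matched nuclei included nuclei with Grin2c, Anxa1 or Calb1, so the terms of the rule on these genes enter the differences. The comparison was therefore repeated against Sox6 nuclei that lacked all 3 genes, in which only Alk, Vcan and Tox separate the classes by the rule. Only 425 male and 72 female nuclei could be matched in depth. Of the 405 genes, 397 could be tested there, 389 had the same direction and 205 were called again. Col11a1 was then higher by 1.49, Kcnmb2 by 1.60, Cfap61 by 1.46 and Tenm2 by 0.88 on the log2 scale, more than in the full comparison. Other genes changed less than in the full comparison, though still called. Il1rapl2 had a log2 fold change of 0.54, Lmx1a 0.60, Atp2b4 -0.76 and Ptchd4 -0.79. Tacr3 was lower by a log2 fold change of -0.81 (edgeR adjusted p = 1.30e-07), against -0.33 in the full comparison. The difference was not called for Tmem163 (0.14), Ptprz1 (0.06), Lrrtm4 (-0.03) and Fgf14 (0.03), and the fitted value of Grin2a was -0.04, of Gabrg3 -0.18 and of Plxna2 -0.01. These 7 genes also differed between members and Grin2c nuclei. The call was lost as well for Ndnf, Kcns3, Ntf3, Gfra1, Gfra2, Gpc5, Ntng2, Nlgn1, Epha5, Epha6, Grid1, Kcnn2 and Chrna6, and for many of the sparse genes among the largest changes. With members chosen by only 2 of Alk, Vcan and Tox, at least 1 choice of the pair lost the call of Tacr3, Unc5d, Gpc5, Ntf3, Tmem163, Gfra2, Lrrtm4, Ntng2, Nlgn1, Epha5, Plxna2, Cdh6, Grik2, Grik3, Gabrb1, Kcnn2, Chrna6 and Rbp4. Of the genes with the largest changes, Rxfp1, Itih5, Gm15614, Gm49527, Trim71, Zfp873, Helb and Frmd8 were called under none of these pairs. Irf2bp1 and Prdm1 were not called under any pair where they had a value. Nefm, Ulk3, Pigt, Abca13, Gm28756, Stac2 and Pde3a lost the call under at least 1 of the pairs.

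Anxa1, the gene that names the subtype on which the study of origin centred, was found in 177 male and 189 female Sox6 nuclei. Of these, 66 male and 73 female nuclei also had a sum of 2 or more of Alk, Vcan and Tox. How many members belonged to that subtype but had no Anxa1 UMI was not tested. After depth matching 130 and 92 of the Anxa1 nuclei were compared with 541 and 562 members. Of 10399 tested genes 174 were called (1.67%), 105 higher in members (1.01%) and 69 lower (0.664%). Aldh1a1 was at 201 and 228 CPM in members against 407 and 498 CPM in Anxa1 nuclei, a log2 fold change of -1.07 (SE 0.09, edgeR adjusted p = 1.86e-29). Hs6st3, a heparan sulfate 6-O-sulfotransferase, was at 683 and 617 CPM in members against 2036 and 2186 CPM (log2 fold change -1.69, SE 0.05, edgeR adjusted p = 2.52e-213). Lmo3, a LIM-only transcriptional cofactor, was at 353 and 348 CPM against 853 and 795 CPM. Each of these levels was lower in members of both libraries.

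The largest falls against Anxa1 nuclei were in Sinhcaf, Hs6st3, Tafa4, A430027H14Rik, AI661453, Aldh1a7, Tmem218 and Myof, and the largest rises in Gm50048, Gm34609, Lamb1, Kcnmb2, Tmem232, Lmx1a, Dnah7b and Gm30382. DESeq2 called only 36 of the 174 genes, and its verdict on each gene named against Anxa1 nuclei is not given here. Gm50048 was at 10.7 and 10.5 CPM in members, with 0 UMIs in the male Anxa1 nuclei, which allows up to 5.09 CPM, and 1 UMI in the female ones. Lamb1, a laminin chain, was at 24.8 and 24.7 CPM in members and 5.09 and 2.30 CPM in Anxa1 nuclei. Lmx1a was at 71.0 and 90.4 CPM against 32.2 and 25.3 CPM (log2 fold change 1.44, SE 0.24, edgeR adjusted p = 3.97e-07). Il1rapl2 was higher by a log2 fold change of 1.05 (SE 0.07), Grin2a by 1.00 (SE 0.08) and Col11a1 by 0.97 (SE 0.07), while Tenm2, which was higher in members than in matched nuclei, was lower than in Anxa1 nuclei, at 4140 and 4225 CPM against 5751 and 5515 CPM (log2 fold change -0.43, SE 0.04).

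Against Sox6 nuclei with Grin2c, 443 male and 692 female after matching, 569 of 11733 tested genes were called (4.85%), 350 higher in members (2.98%) and 219 lower (1.87%). The largest rises were in Gm50048, Slc7a14, Kctd8, Adgrg2, Syndig1l, Tmem163, Hpcal1 and Gulp1, and the largest falls in 9230109A22Rik, Adamts18, Ptchd4, Stac2, Zfp873, Gm11639, Gm11884 and Hs6st3. DESeq2 called only 111 of the 569 genes, and its verdict on each gene named against Grin2c nuclei is not given here. Several were sparse, such as Slc7a14 with 4 male and 8 female UMIs in Grin2c nuclei. Kctd8, an auxiliary subunit of GABA-B receptors, was at 19.1 and 19.6 CPM in members and 6.07 and 6.03 CPM in Grin2c nuclei. Il1rapl2 was higher by a log2 fold change of 1.07 (SE 0.04), Grin2a by 0.90 (SE 0.05) and Gabrg3 by 1.10 (SE 0.07), and Tacr3, lower than in matched nuclei, was higher than in Grin2c nuclei, at 70.2 and 66.1 CPM against 36.4 and 41.6 CPM (log2 fold change 0.79, SE 0.13, edgeR adjusted p = 1.84e-08). The autoreceptor gene Drd2 was lower in members, at 312 and 351 CPM against 426 and 404 CPM (log2 fold change -0.30, SE 0.06, edgeR adjusted p = 3.62e-06). Hs6st3 was at 677 and 620 CPM against 1704 and 1518.5 CPM. The members are the same nuclei in all of these comparisons, so they are not independent of each other.

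**Figure D4:**
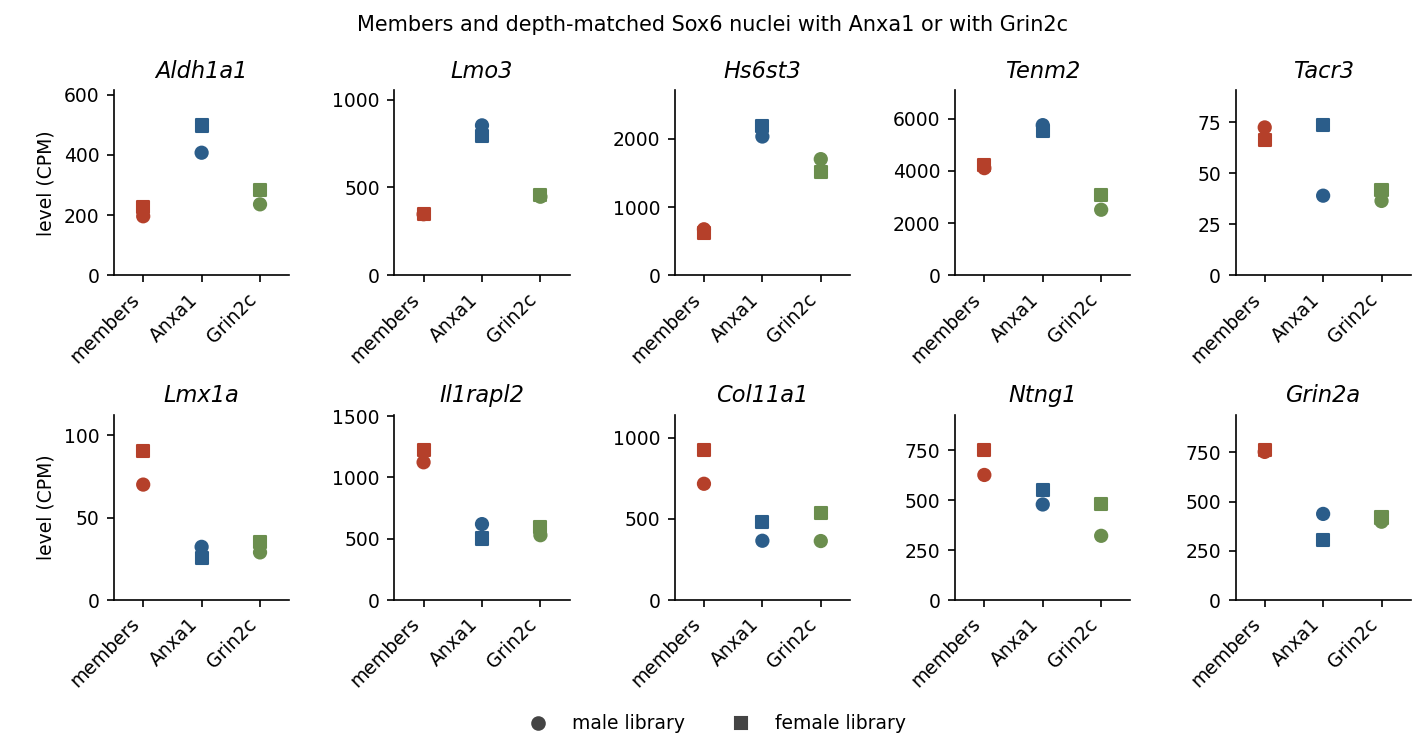
Level in CPM of 10 genes in members, in depth-matched Sox6 nuclei with Anxa1 and in depth-matched Sox6 nuclei with Grin2c, a circle for the male and a square for the female library. Members are lowest in Aldh1a1, Lmo3 and Hs6st3 and highest in Lmx1a, Il1rapl2, Col11a1, Ntng1 and Grin2a in both libraries.

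Whether the members form a single group was described by clustering all 5928 Sox6 nuclei without the 7 genes of the rule, which gave 16 clusters. The members were spread over all of them, with a clear centre. Cluster 3, led by Kcnmb2, Pde11a, Col11a1, Gm50048, Ntng1 and Lmx1a, held 24.5% of male members (exact 95% interval 21.0 to 28.3%) and 31.7% of female members (27.9 to 35.7%), against 6.89% and 8.15% of matched nuclei. Cluster 6, led by Col11a1, Sorcs2, Cfap61 and Grik1, held 14.2% and 11.2% of members against 5.29% and 5.74%, and cluster 8, led by Ccnd2, Tafa4 and Zfp804b, 9.19% and 9.20% against 4.66% and 4.74%. Cluster 4, led by Gabrg3, Bcl11b and Asic2, held 11.2% and 13.6% of members against 8.35% and 9.48%. Clusters 1, 7 and 9 together held 5.05% and 5.13% of members and 32.5% and 34.4% of matched nuclei. Of the nuclei in cluster 3, 44.6% and 50.1% were members. The marker Il1rapl2 was highest not there, at 1855.5 CPM, but in cluster 13, at 3990 CPM. That cluster held 1.62% and 1.24% of members against 2.74% and 3.08% of matched nuclei. Cluster 1 had Grin2c at 217 CPM, a gene that no member may have. Anxa1, which no member may have either, was highest in cluster 8, at 96.0 CPM, where Aldh1a1 was at 576 CPM. Members were thus more frequent than matched nuclei in the cluster richest in Anxa1. In cluster 9, which held few members, Anxa1 was next highest at 74.0 CPM.

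**Figure D5:**
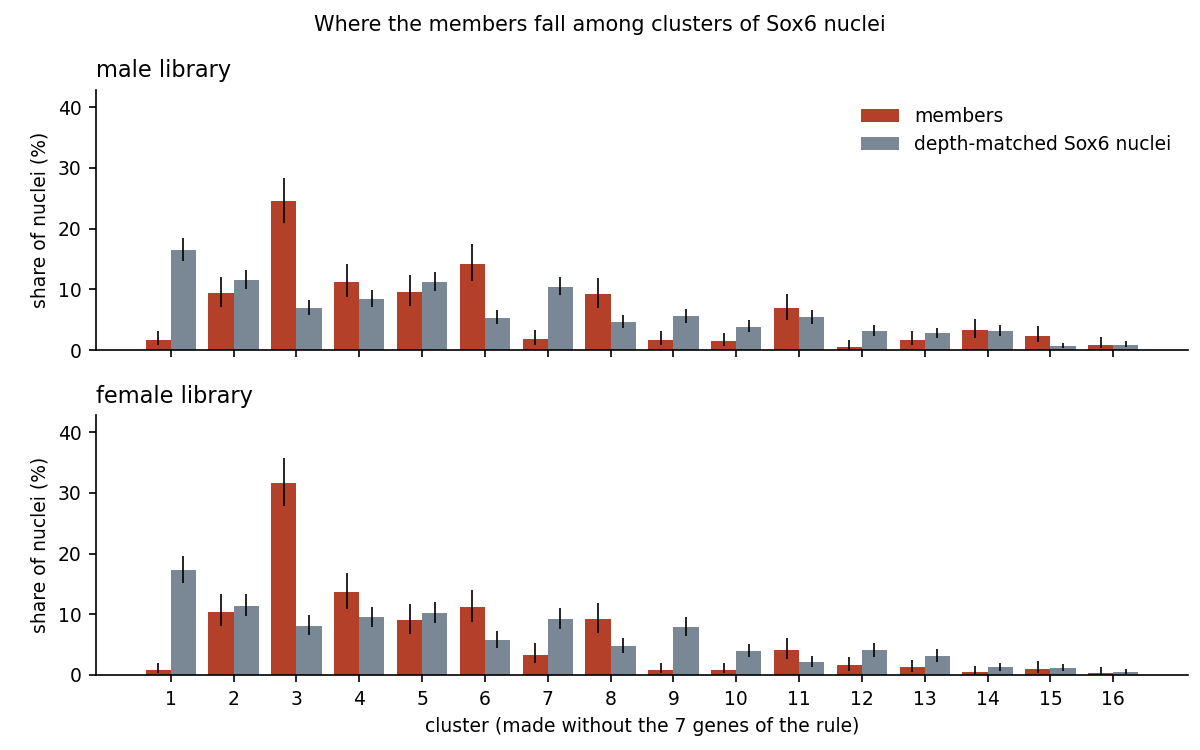
Share of members and of matched nuclei in each of the 16 clusters of Sox6 nuclei, in percent, with exact 95% intervals that cover counting error only. Cluster 3 holds the largest share of members in both libraries, 24.5% and 31.7%, and cluster 1 the largest share of matched nuclei.

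The members differed among themselves by cluster. Members in cluster 3 had Aldh1a1 at 131 CPM (male) and 116 CPM (female), those in cluster 6 at 322 and 404 CPM and those in cluster 8 at 592 and 598 CPM. Lmo3 followed the same order, at 318 and 317 CPM, 506 and 447 CPM, and 1097 and 999 CPM. Lmx1a was higher in cluster 3 than in the other two, at 140 and 145 CPM in cluster 3, 47.8 and 37.6 CPM in cluster 6 and 29.3 and 38.4 CPM in cluster 8. The average of Aldh1a1 over members thus covered members with low and with high levels. Tacr3 was at 202 and 257 CPM in the members of cluster 2 and at 32.0 and 26.2 CPM in those of cluster 3.

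Nuclei of cluster 3 that were not members resembled the members beside them. Il1rapl2 was at 1937 and 1878 CPM in them and 1727.5 and 1859 CPM in members of cluster 3, Ntng1 at 889 and 1160 CPM against 1008 and 1179 CPM, and Lmx1a at 134 and 137 CPM against 140 and 145 CPM. Col11a1 was at 908 and 1266 CPM against 1195 and 1496 CPM. These are levels of cells that were clustered on many of the same genes, and no test was made of them.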

How the data were processed

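Per the labels and the methods of the study, single-nucleus libraries (10x 3′ v3.1) were aligned to mm10 with Cell Ranger 6.0.0, introns included. The files deposited by the authors hold raw UMI counts for 32285 genes in each nucleus. Of 5 mice, 2 males and 3 females were pooled into a library each. Nuclei with at least 500 detected genes were kept, and members were selected as the report states. The members, the gene lists and the tests were chosen with earlier results of these data known.

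Comparison nuclei were drawn (seed 1) in bins of 0.25 log2 units of UMIs outside the 7 genes of the rule. Counts were summed per library and class and tested with edgeR 4.0.16 (quasi-likelihood, TMM, low-count filter by class, library as block, two-sided, Benjamini-Hochberg at 0.05). The sums of a library come from the same mice, so the block pairs them. The genes of the rule are given as a description, without a test. Named genes are the 15 called genes with the largest rise and fall (8 against Anxa1 and Grin2c nuclei) with at least 50 UMIs and the same sign in both libraries, the given markers, and called or abundant members of the gene lists. In simulated counts 2.59% of the calls of the main comparison were unchanged genes, and 4.41% and 6.62% of those against Anxa1 and Grin2c nuclei, where 44% and 77% of 2-fold changes were recovered.

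CPM are UMIs of a gene per 1000000 UMIs of the class. Clusters used 2000 variable genes, 30 components and Leiden at resolution 1 (scanpy 1.11.5). Scrublet's own threshold marked 0 male nuclei and 1 female nucleus and was taken as failed. No nuclei were removed, and the 6% with the highest scores were left out as an alternative. DESeq2 1.42.0 was an alternative. Positions are from GENCODE M21 (mm10), which held 32235 of the 32285 gene identifiers. Results for some genes of the lists are not reported here.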

Additional observations from a re-analysis of the deposited data

Results flagged for a closer look

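Ddc, Slc18a2 and Aldh1a1 went in opposite directions in the libraries, none of them by an amount that passed the test. Members minus matched nuclei on the log2(CPM + 1) scale was 0.0137 for male and -0.00833 for female nuclei in Ddc, -0.16 and 0.00355 in Slc18a2, and 0.0133 and -0.13 in Aldh1a1. With 1 library per sex the difference was not tested.

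Nuclei without a Sox6 UMI were outside the comparisons. Of these, 466 in the male library and 415 in the female library met every other term of the rule, so a sum of 2 or more UMIs of Alk, Vcan and Tox without Grin2c, Anxa1 and Calb1 was not confined to Sox6 nuclei. How many of them held Sox6 transcripts that were missed was not tested.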

How the results depend on the processing

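The limits are 2 libraries, sparse counts and a rule that reads those same counts. Of the genes of the main comparison, 250 higher and 155 lower, DESeq2 called 75 and 28, all of them among the 405. The fit with no replicate block called 0 and 0, nuclei thinned to 1000 UMIs without matching gave 119 and 51, nuclei with both Th and Slc6a3 gave 160 and 101, and comparison nuclei without Grin2c, Anxa1 and Calb1 gave 144 and 94, or 86 and 35 when thinned (added after the data were seen). The other alternatives stayed within 1.5 times of the main counts, including members by each pair of Alk, Vcan and Tox, a sum of 3 or more, and nuclei without oligodendrocyte lineage UMIs or high Scrublet scores. Against Anxa1 nuclei (105 and 69) DESeq2 called 18 and 18, no replicate block 7 and 8, and no low-count filter left 44 lower. Against Grin2c nuclei (350 and 219) these gave 70 and 41, 6 and 3, and 197 and 121. The cause of these drops was not tested. The libraries pair the sums by design, since both sums of a library come from the same mice.

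Signs turned, with no call, for Tmem163 (-0.0837) and Grin2a (-0.104) in the thinned comparison without Grin2c, Anxa1 and Calb1, for Grin2a (-0.0386), Gabrg3 (-0.184) and Plxna2 (-0.00842) in the matched one, and for Unc5d with members by Alk and Tox (0.00400) or by Vcan and Tox (0.119). In either library alone, which is a value with no test, each of the 405 called genes kept its sign, as did 567 of the 569 called against Grin2c nuclei in the male library. The share of Sox6 nuclei that were members was 32.8% male and 32.0% female with a sum of 1 or more, 10.6% and 12.1% with 3 or more, and 5.17% and 6.23% after thinning. Its mean of 18.9% over the libraries lay between 17.8% and 20.0% in the libraries alone. The leading cluster held 29.6% of male members at resolution 0.5, and 19.8% of male and 26.0% of female members at 1.5.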
